A study of Mus musculus with 62 samples.

Results

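Immediate early genes are switched on within minutes of a neuronal stimulus, without new protein synthesis, and their transcripts decay quickly. Here 10 of them were followed by symbol: Fos, Fosb, Jun, Junb, Egr1, Egr2, Egr3, Arc, Npas4 and Nr4a1. The count table held 9 of these 10 among its 11121 genes, and Egr2 was not analysed here. Counts per gene were obtained by BRB-seq, a 3′ method that barcodes each RNA sample with its oligo-dT primer and then pools the samples, in nucleus accumbens (NAc) and prefrontal cortex (PFC) tissue of wild-type C57BL/6j male mice aged 15 weeks. Mice were either exposed to multimodal chronic restraint stress (mCRS), daily restraint under changing conditions, or left unstressed (CTR), and tissue was taken several days after the last session. There were 15 PFC CTR, 15 PFC mCRS, 16 NAc CTR and 16 NAc mCRS libraries. All 4 groups share genotype, strain and age, and the study also ran behavioral tests, a forced swim among them, before tissue was taken.

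In background, calcium entry and kinase signalling in an active neuron reach CREB, SRF and MEF2 proteins that already sit on the promoters of these genes. Most of the products are transcription factors that then act on late-response genes such as Bdnf, while Arc acts directly at the synapse. In the cortex and the striatum their transcripts are widely read as a trace of recent neuronal activity. Fos and Fosb pair with Jun and Junb to form the AP-1 factor, Egr1 and Egr3 are zinc finger factors, Npas4 is a neuron-specific bHLH-PAS factor that responds to calcium, Nr4a1 is an orphan nuclear receptor, and Arc takes part in the removal of AMPA receptors from synapses.

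The promoters were searched for the motifs of the factors named above. RefSeq windows on GRCm38.p6 ran from 250 bases before to 50 bases after the annotated start. Those of 6 members were searched: Fos, Fosb, Jun, Junb, Npas4 and Nr4a1. The window of Egr1 was left out of the search, and none was matched for Egr3 and Arc. The presence or absence of a motif below therefore says nothing about Egr1, Egr3 or Arc. The 5-base core TGACG of the CREB binding motif (CRE), searched on both strands, was present in 5 of these 6 windows and in 20.8% of 32851 mouse promoter windows of the same length. The full CRE TGACGTCA, held by 1.79% of all windows, the AP-1 motif TGANTCA (7.81%) and the CArG box of SRF (1.63%) had no match in any of the 6 windows. The core TGACG lies within the full CRE, and the TATA box TATAAA (13.6%) and the EGR motif GCGNGGGCG (5.55%) were searched in the same way. The windows of 4 members are printed because they hold the matches of Fos, of the pair with the highest correlation between libraries, Fosb and Npas4, and of Nr4a1, which had the most matches. Capitals mark TGACG on either strand.
Fos, chr12:85473640-85473939, + strand: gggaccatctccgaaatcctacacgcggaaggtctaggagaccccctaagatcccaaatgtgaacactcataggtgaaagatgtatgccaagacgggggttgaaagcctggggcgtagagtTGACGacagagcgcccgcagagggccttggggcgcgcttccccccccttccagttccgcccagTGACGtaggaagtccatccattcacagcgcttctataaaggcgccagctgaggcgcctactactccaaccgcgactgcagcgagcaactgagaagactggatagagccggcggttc
Fosb, chr7:19309996-19310295, - strand: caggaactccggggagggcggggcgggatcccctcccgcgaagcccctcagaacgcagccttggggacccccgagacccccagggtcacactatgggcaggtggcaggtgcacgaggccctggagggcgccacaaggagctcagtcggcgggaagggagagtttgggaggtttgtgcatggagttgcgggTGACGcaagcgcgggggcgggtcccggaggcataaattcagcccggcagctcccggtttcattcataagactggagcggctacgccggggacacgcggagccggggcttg
Npas4, chr19:4989922-4990221, - strand: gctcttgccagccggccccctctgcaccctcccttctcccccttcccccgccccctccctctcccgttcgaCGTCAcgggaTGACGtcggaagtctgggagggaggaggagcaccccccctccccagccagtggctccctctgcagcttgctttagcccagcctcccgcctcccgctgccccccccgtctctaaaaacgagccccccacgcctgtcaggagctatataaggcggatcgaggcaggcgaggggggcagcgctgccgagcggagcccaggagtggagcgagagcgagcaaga
Nr4a1, chr15:101266596-101266895, + strand: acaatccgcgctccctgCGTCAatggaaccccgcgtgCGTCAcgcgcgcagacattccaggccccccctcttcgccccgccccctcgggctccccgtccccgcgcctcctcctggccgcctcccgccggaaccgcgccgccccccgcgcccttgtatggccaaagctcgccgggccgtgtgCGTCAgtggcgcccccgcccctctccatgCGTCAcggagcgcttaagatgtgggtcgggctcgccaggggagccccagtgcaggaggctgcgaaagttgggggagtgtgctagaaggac
The 2 matches of Fos begin 129 and 66 bases before the start, and those of Npas4, on opposite strands, 179 and 169 bases before it. The window of Nr4a1 had 4 matches and those of Fosb and Junb had 1 each. These matches describe letters in the windows and not binding.

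**Figure D1:**
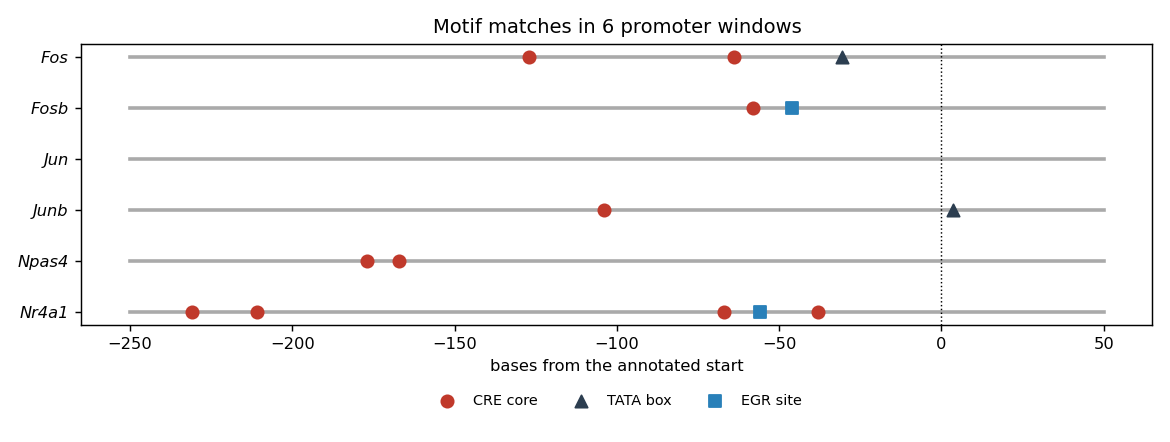
Matches of the CRE core, the TATA box and the EGR motif in the promoter windows of 6 immediate early genes, by distance in bases from the annotated start. Grey lines are the windows from 250 bases before to 50 bases after the start, and 5 of the 6 windows hold at least 1 CRE core.

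Library totals lay between 945286 and 4857359 counts. The PFC mCRS libraries held counts for 82.3% ± 6.22 of the listed genes (SD, n = 15) and the PFC CTR libraries for 87.1% ± 4.42 (SD, n = 15). Cortical excitatory neuron markers summed to between 516 and 1348 CPM in PFC libraries and between 7.64 and 301 CPM in NAc libraries, where CPM is a count scaled to a common library total. Striatal projection neuron markers summed to between 59.8 and 706 CPM in the PFC and, in 31 of 32 NAc libraries, to between 1087 and 3468 CPM. 2 libraries stood apart: NAc CTR 7 had 113 CPM of the striatal markers, and NAc mCRS 10 had 21591 CPM of the choroid plexus marker Ttr. Without these 2 libraries, edgeR called the same number of immediate early genes in each comparison of groups below.

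The 9 genes had very different amounts of data behind them. Over the 62 libraries there were 23672 counts of Egr1, 12290 of Egr3, 7917 of Junb, 7467 of Jun, 7024 of Arc, 4303 of Nr4a1, 2836 of Fos, 1335 of Npas4 and 994 of Fosb. These totals measure the precision for each gene and are not an order of expression. Egr1, Egr3 and Junb had a count in every library, while Fos was at 0 in 15 libraries, Npas4 in 20 and Fosb in 29. The coefficient of variation between libraries of a group, fitted with edgeR, ran from 46.7% for Egr1 to 239% for Fosb. Counting error alone at the mean counts would give 5.12% for Egr1 and 24.97% for Fosb. Variation of this size was not limited to these genes. At the same abundance the trend over all genes was 55.8% for Egr1, 71.8% for Egr3 (fitted 75.2%), 158% for Fos (fitted 162%) and 203% for Fosb.

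**Figure D2:**
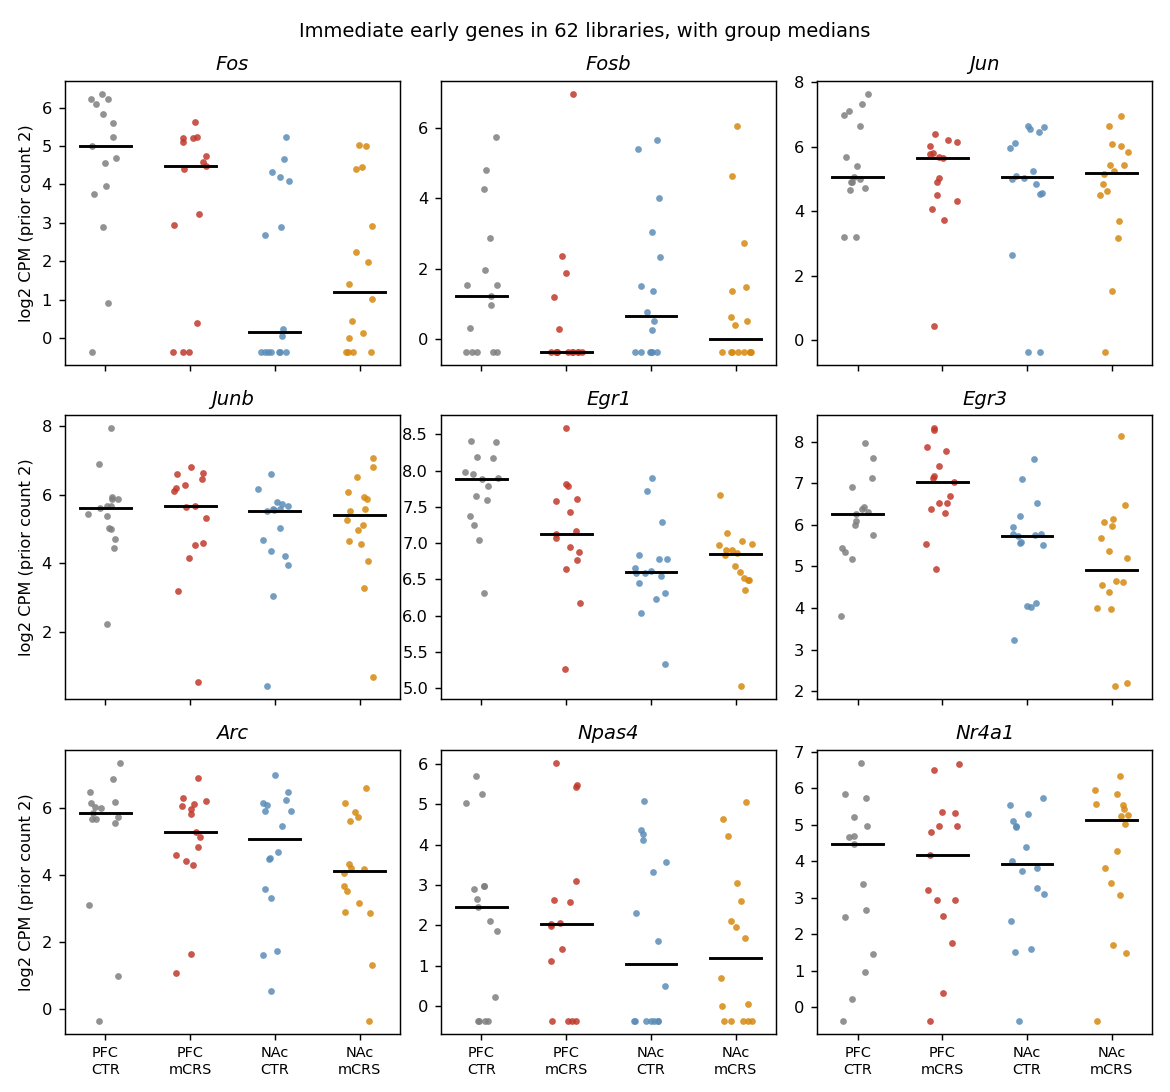
Level of the 9 immediate early genes on the y axis, as log2 CPM with a prior count of 2, in each of the 62 libraries (points) by group on the x axis, with the group median as a black line. Egr1 lay higher in PFC CTR than in NAc CTR libraries, Fos was at its floor in many NAc libraries, and the groups overlapped for every gene.

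In the PFC, 0 of the 8 immediate early genes tested passed an adjusted p of 0.05 between mCRS and CTR. Fosb did not pass the filter on low counts. In bulk tissue, fewer cells of a type and less RNA per cell cannot be told apart. Over all 8916 genes tested 0% were called at that threshold by edgeR's quasi-likelihood test with Benjamini-Hochberg adjustment, and DESeq2 called 0 of the 8 as well. At an unadjusted p below 0.05 there were 2 of the 8, Egr1 and Egr3, against 3.5% of all genes tested. They moved in opposite directions. The median log2 fold change of the 8 was -0.24, beside -0.01 over all genes tested.

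Egr1, on chromosome 18 (GRCm38, 34859823 to 34864984), encodes the zinc finger factor also called Zif268. In PFC CTR libraries its lowest, median and highest levels were 78.9, 235 and 339 CPM, and in PFC mCRS libraries they were 37.8, 138 and 383 CPM. The group means were 224 ± 73.5 CPM in CTR and 157 ± 81.8 CPM in mCRS (SD, n = 15 each). The highest single value was in an mCRS library, but 13 of 15 CTR libraries lay above the mCRS median and 1 of 15 mCRS libraries lay above the CTR median. The log2 fold change was -0.51 (SE 0.24, 95% interval -0.99 to -0.03, p = 0.0379, edgeR adjusted p = 0.9997), and the difference therefore did not pass the correction over all genes. The p lay below 0.05 under 35 of 42 alternative settings, with a range of 0.00671 to 0.0679. Of these settings 30 repeat the test with 1 library left out and 12 change the processing or the fit, so they are not independent.

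Egr3, on chromosome 14 (70077203 to 70082614), encodes a related zinc finger factor. Its lowest, median and highest levels were 13.1, 76.0 and 249 CPM in PFC CTR and 29.7, 130.1 and 319 CPM in PFC mCRS libraries. Here 13 of 15 mCRS libraries lay above the CTR median, and 3 of 15 CTR libraries lay above the mCRS median. The means were 89.4 ± 63.3 CPM and 145 ± 88.7 CPM (SD, n = 15 each). The log2 fold change was 0.71 (SE 0.34, 95% interval 0.03 to 1.38, p = 0.0408, edgeR adjusted p = 0.9997), which again failed the correction. The p lay below 0.05 under 23 of the 42 alternative settings, of which again 30 leave out 1 library each, with a range of 0.0104 to 0.0994. The log2 fold change of Egr3 was 0.65 (p = 0.0895) when the detected share entered the edgeR fit and 0.73 (p = 0.0612) with log2 library size. Egr1 gave -0.56 (p = 0.0405) and -0.57 (p = 0.0287) in the same fits. The share of genes detected differed between the PFC groups as given above, and its part in either difference was not tested beyond these fits.

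Of the AP-1 genes, Fos (chromosome 12, 85473890 to 85477273) had 0, 31.1 and 81.1 CPM as its lowest, median and highest levels in PFC CTR libraries and 0, 21.4 and 48.2 CPM in PFC mCRS libraries. Among the CTR libraries 5 of 15 exceeded every mCRS library, and the log2 fold change was -0.88 with an interval of -2.40 to 0.63. Jun (chromosome 4, 95049034 to 95052222) had levels of 8.34, 32.5 and 198 CPM in CTR and 0.581, 49.6 and 82.8 CPM in mCRS libraries. Its median was higher and its mean lower in mCRS, 42.0 ± 25.03 CPM against 66.5 ± 60.6 CPM (SD, n = 15 each), and 5 CTR libraries lay above all mCRS libraries. The log2 fold change of Jun was -0.66 (SE 0.50, p = 0.191 from edgeR). Jun overlaps the antisense gene Junos at its 5′ end. The strand setting is not known, so reads from the overlap may be mixed or left out of the counts.

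Junb (chromosome 8, 84974484 to 84978718) had a log2 fold change of -0.10 in the PFC (SE 0.48, interval -1.07 to 0.87). Its 3′ end overlaps that of Prdx2 on the opposite strand. The strand setting of the counting is not given in the sources used here. Reads from the overlap may therefore be mixed or left out of the counts. Prdx2, a peroxiredoxin with 42149 counts in all, gave 0.03 (SE 0.19). Fosb (chromosome 7, 19302696 to 19310051) was at 0 in 5 of 15 CTR and 10 of 15 mCRS libraries. The median library total was 2398072 counts in PFC CTR and 1966931 in PFC mCRS, and the part of depth in these zeros was not tested. The library PFC mCRS 12 held 138 of the 158 counts of Fosb in its group (87.3%), 124 CPM, and it had the lowest total of its group, 1094940 counts.

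Arc (chromosome 15, 74669083 to 74672570) had lowest, median and highest levels of 0, 57.3 and 163 CPM in PFC CTR and 1.30, 38.0 and 118 CPM in PFC mCRS libraries, with a log2 fold change of -0.39 (SE 0.55). Npas4 (chromosome 19, 4984355 to 4990316) and Nr4a1 (chromosome 15, 101254269 to 101274795) gave 0.21 (SE 0.99) and 0.12 (SE 0.78). For each of the 6 genes other than Egr1 and Egr3 the interval held 0, and for Npas4 it ran from -1.77 to 2.19, so that a change of several fold in either direction could not be seen at this depth and spread.

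**Figure D3:**
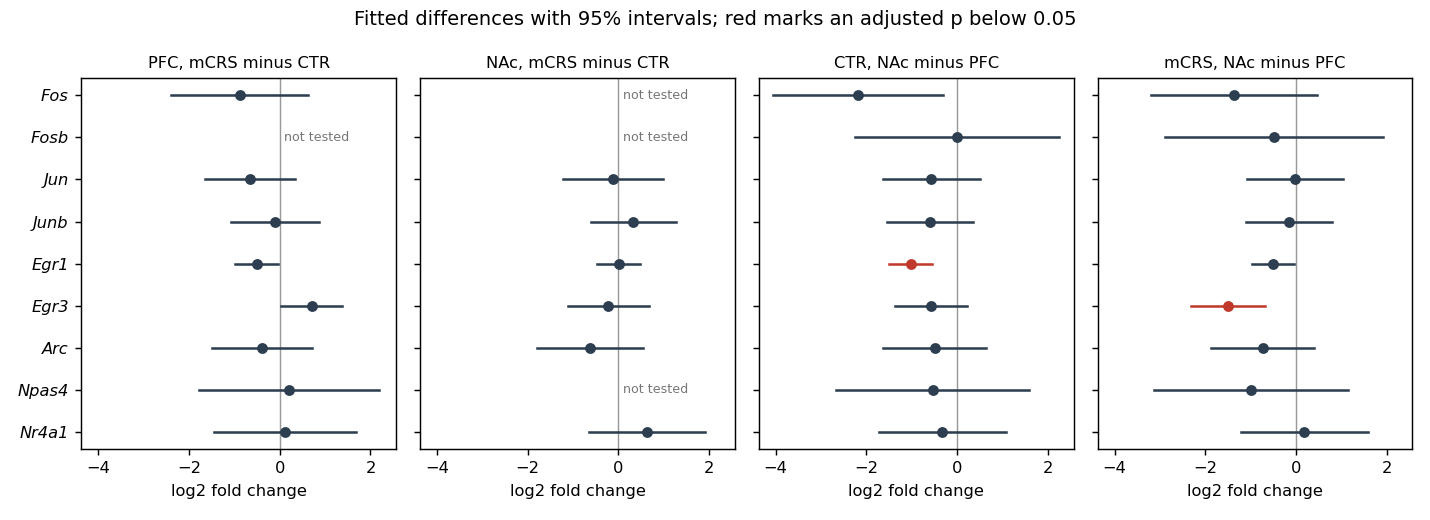
Log2 fold change on the x axis (points) with 95% intervals (lines) from edgeR for each immediate early gene in 4 comparisons. Red marks the only 2 values with an adjusted p below 0.05, Egr1 in NAc against PFC of CTR mice (-1.03) and Egr3 in NAc against PFC of mCRS mice (-1.50), and genes below the filter on low counts are marked as not tested.

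In the NAc, 0 of 6 immediate early genes tested passed the adjusted p, and 0 of 6 had an unadjusted p below 0.05 (edgeR; 0 of 6 by both measures with DESeq2). The shares over all 10141 genes tested were 0.00986% and 2.04%. Fos, Fosb and Npas4 did not pass the filter on low counts. Egr1 had nearly the same level in both groups, with lowest, median and highest values of 39.7, 96.3 and 239 CPM in CTR and 31.7, 114 and 201 CPM in mCRS libraries. Its log2 fold change was 0.01 (SE 0.24, interval -0.47 to 0.49). Egr3 had 8.54, 52.6 and 191 CPM in CTR and 3.55, 30.1 and 281 CPM in mCRS libraries, with a log2 fold change of -0.23 (SE 0.45). The other fitted differences were -0.63 for Arc (SE 0.58), 0.63 for Nr4a1 (SE 0.64), 0.32 for Junb (SE 0.47, beside 0.10 for Prdx2) and -0.12 for Jun (SE 0.55). In a fit without the filter Fos, Fosb and Npas4 had log2 fold changes of -0.05, -0.29 and -0.24, each with an SE above 1.

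Whether the effect of mCRS differed between the regions was tested as the interaction over all 62 libraries. None of the 9 genes was called (0 of 9 with edgeR and 0 of 9 with DESeq2, against 0.00907% of 11025 genes), and 0 of 9 had an unadjusted p below 0.05, against 3.09%. The effect on Egr1 was 0.52 lower in the PFC than in the NAc on the log2 scale (an interaction of -0.52, SE 0.33, p = 0.118), and that on Egr3 was higher by 0.92 (SE 0.57, p = 0.108). The different values of these genes in the PFC and the NAc are therefore not shown to be different effects.

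Between the regions, Egr1 in CTR mice and Egr3 in mCRS mice were lower in the NAc than in the PFC. In CTR mice 1 of 9, Egr1, was called lower in the NAc at an adjusted p below 0.05, against 3.56% of all 11025 genes called lower, and 2 of 9, Egr1 and Fos, were lower at an unadjusted p below 0.05, against 7.53%. The median log2 fold change of the 9 was -0.57, beside 0.04 over all genes. Fitted values were below 0 for each of the 9, though that of Fosb was -0.001 and turned positive under DESeq2, RLE and upper-quartile scaling.

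Egr1 in NAc CTR libraries averaged 110.1 ± 51.2 CPM (SD, n = 16), against the 224 CPM of PFC CTR libraries. In all, 14 of 15 PFC CTR libraries lay above the NAc median and 7 of them above every NAc CTR library. The log2 fold change was -1.03 (SE 0.24, edgeR adjusted p = 0.00152), or 0.491 of the PFC level. The adjusted p stayed between 0.000365 and 0.0098 under 74 alternative settings, including each library left out. Fos had lowest, median and highest levels of 0, 0.336 and 36.9 CPM in NAc CTR libraries, 7 of 16 of which had no Fos count. Its log2 fold change was -2.19 (SE 0.94, p = 0.0223, edgeR adjusted p = 0.231), and 6 of 15 PFC CTR libraries exceeded every NAc CTR library.

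In mCRS mice the gene called lower in the NAc was Egr3, again 1 of 9, against 3.86% of all genes. Its log2 fold change was -1.50 (SE 0.41, edgeR adjusted p = 0.00937, from 0.000142 to 0.0414 under 74 alternatives). Among PFC mCRS libraries 14 of 15 lay above the NAc mCRS median, and 8 of 16 NAc mCRS libraries lay below every PFC mCRS library. Egr1 gave -0.50 (SE 0.23, p = 0.0343, adjusted p = 0.255) in mCRS mice, and Egr3 gave -0.58 (SE 0.40, adjusted p = 0.644) in CTR mice. These pairs of values differ by the interactions given above, which did not pass the test. Both regions' cell markers moved with the comparison. In the NAc of CTR mice 3 of 4 cortical excitatory neuron markers were called lower, against 3.56% of all genes. Called higher were 6 of 6 striatal projection neuron and 3 of 4 oligodendrocyte markers, against 208 of 11025 genes. In mCRS mice 4 of 4 cortical markers were called lower, against 3.86% of all genes. Called higher there were 6 of 6 striatal and 3 of 4 oligodendrocyte markers, against 289 of 11025 genes. The part of these cell types in the levels of Egr1, Fos and Egr3 was not tested.

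Members of the same pathway outside the 9 genes were described from lists. Of 29 other immediate early genes, 24 were in the count table. In the PFC 18 of them were tested and 0 had an unadjusted p below 0.05 between mCRS and CTR, against 3.5% of all genes. In the NAc there were 0 of 19, against 2.04%. In CTR mice 4 of 24 were lower in the NAc at an unadjusted p below 0.05, against the 7.53% of all genes given above, 0 were higher and 0 passed the adjusted p. The 3 of smallest p were Ier5 (-1.20), Ier2 (-2.93) and Homer1 (-0.51), a postsynaptic scaffold protein, on the log2 scale. In mCRS mice 5 of 24 were lower and 1 of 24 was higher in the NAc at an unadjusted p below 0.05, against 8.34% and 7.42% of all genes. Of the 24, 1 was called lower in the NAc, against 3.86% of all genes. It was Homer1, with -0.88 (SE 0.22, edgeR adjusted p = 0.00332). Counts are per gene, so the transcript forms of Homer1 were not told apart.

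Of 11 late-response genes, which the early factors are known to act on, 10 were in the table. In CTR mice 2 of 10 were called lower in the NAc, against 3.56% of all genes. They were Nrn1, which encodes the neuritogenesis protein neuritin (-3.51), and Bdnf, a neurotrophin (-2.60). Called higher was 1 of 10, the secretogranin Scg2 (1.47), against 208 of 11025 genes. In the PFC Bdnf had the smallest p of the list between mCRS and CTR, with a log2 fold change of 2.28 (SE 0.57, p = 0.000215, edgeR adjusted p = 0.475). It rested on the library PFC mCRS 9, which alone held 8879 Bdnf counts, and without that library it was 0.05 (SE 0.39, p = 0.906). Of 19 upstream factors and kinases, all tested in both regions, 2 had an unadjusted p below 0.05 in the PFC after mCRS (against 3.5% of all genes), the CREB partner Crebbp (-0.67) and the SRF partner Mrtfb (0.45), and 0 in the NAc (against 2.04%). In the NAc of CTR mice 1 of the 19 was called lower, against 3.56% of all genes. It was Mef2c, a MEF2 factor (-2.10, SE 0.16, edgeR adjusted p = 8.28e-19).

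Spread between libraries was compared as the absolute deviation from the group median on the log2 CPM scale. With limma, 0 of 8 genes in the PFC and 0 of 6 in the NAc were called, against 0% of all genes in both regions. At an unadjusted p below 0.05 there were also 0 of 8 and 0 of 6. Over all genes there were 445 of 8916 in the PFC and 316 of 10141 in the NAc. Egr1 deviated by 0.40 on average in PFC CTR and by 0.55 in PFC mCRS libraries (p = 0.345), while over all genes the medians were 1.08 and 1.33. Egr3 deviated by 0.81 in NAc CTR and by 1.16 in NAc mCRS libraries (p = 0.339).

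Finally, it was examined whether these genes rose and fell together between libraries of a group. The 9 genes form 36 pairs, and each was correlated in each of the 4 groups, which gave 144 relations. After Benjamini-Hochberg adjustment over the 144, 0 passed a threshold of 0.05 by Pearson's r and 0 by Spearman's rho (permutation tests). Without adjustment 12 had a p below 0.05 for r, 7 positive and 5 negative. The positive ones were 3 of 3 in PFC CTR, 0 of 3 in PFC mCRS, 1 of 1 in NAc CTR and 3 of 5 in NAc mCRS. The matching share over all gene pairs was not computed. The median r over the 36 pairs was 0.05 for both PFC groups, 0.14 for NAc CTR and 0.03 for NAc mCRS. Over all pairs of genes tested it was 0.010 for PFC CTR, 0.019 for PFC mCRS, 0.035 for NAc CTR and 0.034 for NAc mCRS. Leaving out each library in turn moved the median of the 36 pairs between 0.063 and 0.184 in NAc CTR, between -0.051 and 0.078 in NAc mCRS, between -0.099 and 0.113 in PFC CTR and between 0.023 and 0.079 in PFC mCRS. It fell below 0 without PFC CTR 5, without NAc mCRS 5 and without NAc mCRS 6, and its lowest value in NAc CTR was without NAc CTR 11.

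**Figure D4:**
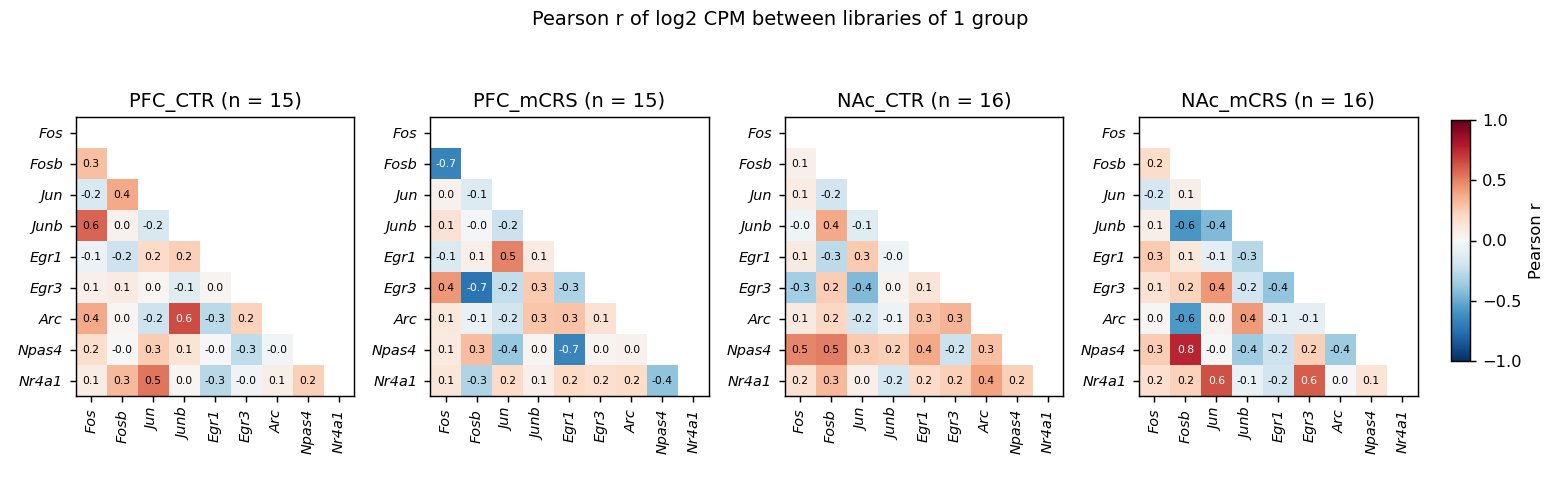
Pearson r of log2 CPM for each pair of the 9 immediate early genes (rows and columns) between the libraries of 1 group, in 4 panels, with red for positive and blue for negative values. The same pair often has opposite signs in different groups, and the strongest cell is Fosb with Npas4 in NAc mCRS (0.76).

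Fosb and Npas4 gave the highest r, 0.76 in NAc mCRS libraries (n = 16, permutation p = 0.00059, adjusted p = 0.0734), with a rho of 0.72 (p = 0.00234, adjusted p = 0.337). Without the 2 libraries farthest from the median of Fosb, r was 0.50. In the libraries NAc mCRS 9 and NAc mCRS 2 both genes were at their highest, 65.5 and 24.1 CPM for Fosb and 32.7 and 24.1 CPM for Npas4. In NAc CTR libraries the pair gave 0.51 (n = 16, permutation p = 0.042, adjusted p = 0.51). In PFC CTR libraries it gave -0.005, and in PFC mCRS libraries 0.31, or -0.56 without the 2 farthest libraries. The strongest negative pair was Fosb with Egr3 in PFC mCRS, with an r of -0.73 (n = 15, permutation p = 0.00102, adjusted p = 0.0734), a rho of -0.60 (p = 0.0201, adjusted p = 0.53) and an r of -0.55 without the 2 farthest libraries. Both pairs include Fosb, which had no count in 8 of 16 NAc mCRS and 10 of 15 PFC mCRS libraries.

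Over all 62 libraries, after each group had been centred, the 36 pairs had a median r of 0.01 and 20 of 36 lay above 0, while over all gene pairs the median was 0.028 and 57.6% lay above 0. Fosb with Npas4 was again highest, at an r of 0.39 (n = 62, p = 0.00197 from permutation within groups, adjusted p = 0.0709) and a rho of 0.36 (p = 0.00658, adjusted p = 0.237), followed by Jun with Nr4a1 (0.33, adjusted p = 0.137) and Junb with Arc (0.31, adjusted p = 0.203). None of the 36 passed the adjustment. As a description over the same libraries, the median r was 0.06 for the other immediate early genes, 0.02 for late-response genes, 0.10 for upstream factors and 0.10 for cortical excitatory neuron markers. It was 0.37 for striatal projection neuron markers (0.30 without NAc CTR 7 and NAc mCRS 10), 0.36 for oligodendrocyte, 0.16 for endothelial, 0.07 for microglial and -0.06 for astrocyte markers.

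**Figure D5:**
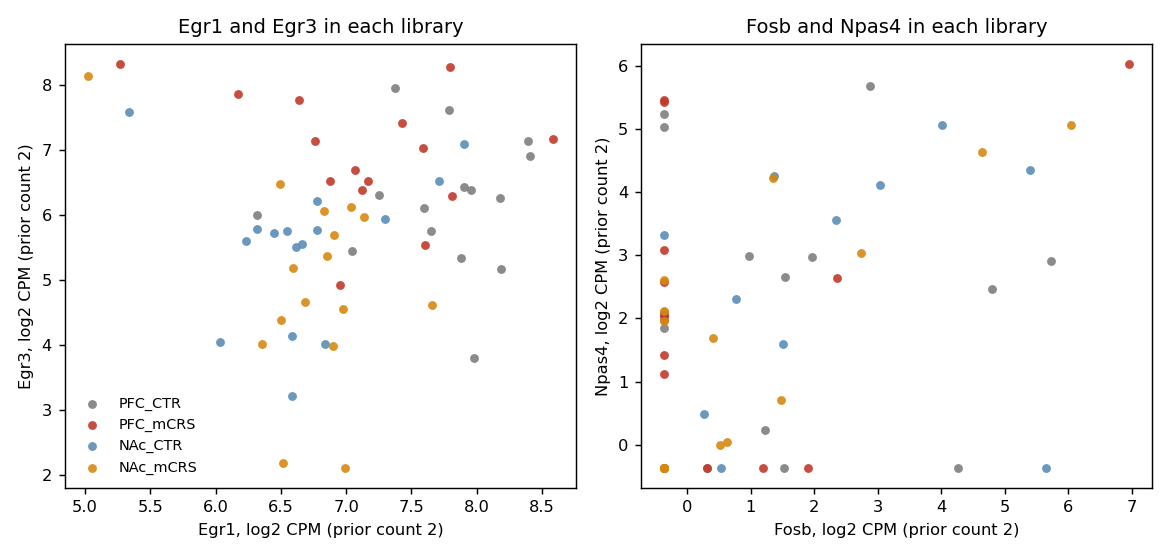
Egr3 against Egr1 (left) and Npas4 against Fosb (right), as log2 CPM with a prior count of 2, in each of the 62 libraries colored by group. Egr1 and Egr3 form no common line, and in the right panel many libraries sit at the floor of 1 or both genes while NAc mCRS 9 and NAc mCRS 2 are high for both.

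Gene levels were also correlated with depth, and the highest r did not pass the adjustment. Over 72 relations of a gene with the log2 library total or the share of genes detected, Egr1 in NAc CTR had the highest r, 0.62 (n = 16, permutation p = 0.00965, adjusted p = 0.493; rho 0.51, adjusted p = 0.771), and 0.37 without the 2 farthest libraries. With log2 library size regressed out, the median r of the 36 pairs in NAc CTR was 0.08. The library NAc CTR 2, with the lowest total of all, 945286 counts, had the lowest Egr1 level of its group, 39.7 CPM, and the highest levels of Egr3, Junb and Fosb, 191, 95.9 and 49.4 CPM.

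Genes outside the 9 were ranked by their correlation with the mean of the 9, each centred by group and scaled, over the 62 libraries. This is a description without a test, and the points share libraries and depth. The 10 highest were Sh3bgrl (0.58), Bcas2 (0.54), Mrps30 (0.52), Dock9 (0.50), Rsu1 (0.49), Tysnd1 (0.49), Cpped1 (0.48), R3hdm4 (0.47), Foxo6 (0.46) and Med19 (0.46), among 11016 genes with a median of 0.06. None of these 10 is on the lists of immediate early, late-response or upstream genes. The median was 0.14 for the 24 other immediate early genes (at most 0.33), 0.14 for the upstream factors (at most 0.37), 0.12 for late-response genes and 0.18 for the striatal projection neuron markers (at most 0.41). Of the 9 genes themselves, Nr4a1 had the highest r with the mean of the other 8, 0.33, and Egr1 the lowest, -0.02.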

How the data were processed

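RNA of the PFC and NAc was sequenced by BRB-seq, and the authors mapped reads to GRCm38 with STAR and counted uniquely mapped reads per gene with HTSeq (0.9.1 in the submitters' processing notes). They deposited raw counts, without normalization, and left out PFC samples of poor sequencing quality. The strand setting is not given in the sources used here. Counts hold PCR copies, since no molecular identifiers were used, so counting error is a lower bound. Which PFC and NAc libraries come from 1 mouse is not given, and each library was treated as independent.

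Groups were taken from the labels. Regions were fitted separately with edgeR 4.0.16 in R 4.3.3 (TMM, default filter by group, quasi-likelihood test, Benjamini-Hochberg over all genes), and regions were compared with the interaction in a fit of all 62 libraries. Spread was tested with limma 3.58.1 on log2 CPM (prior count 2). Correlations used 100000 permutations, two-sided. Intervals are 95%. Scripts were tested on simulated data. Alternatives included DESeq2 1.42.0, other scalings, filters, covariates, a block and each library left out. Coordinates are from GENCODE on GRCm38.

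The members, lists and tests were chosen with earlier results of these data known. The text names each member, at most 3 genes of smallest p per list and the 10 genes most like the members' mean. The pooled correlation and the omission of 2 libraries were chosen after seeing the data, as were Prdx2 and Ttr.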

Additional observations from a re-analysis of the deposited data

How the results depend on the processing

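The number of immediate early genes called in each comparison was the same under each alternative and with each library left out, with 1 exception, the block on treatment and replicate number. With it 2 of 9 genes were called lower in the NAc of CTR mice, as Fos joined Egr1 (log2 fold change -4.67, SE 1.48, edgeR adjusted p = 0.0458). The block changed no other call. For mCRS against CTR within a region it was a block on replicate number alone. That block joins mice of different treatment with no known link. Median pair correlations lay near 0 and could change sign: that of NAc mCRS, 0.029, was -0.005 with log2 library size and -0.016 with the share of genes detected regressed out. Same-numbered libraries did not deviate together, with correlations from -0.03 to 0.05 and 0 pairs above 0.1. Whether equal numbers mark the same mouse cannot be decided from this, since no libraries known to be paired were there for comparison.

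No value with a changed sign had passed the threshold, and the cause was not tested. In the PFC, Npas4 turned to -0.21 with log2 library size, -0.35 with the share of genes detected and -0.55 with the block on replicate number. Egr1 in the NAc turned to -0.0118 with upper-quartile scaling and to -2.97e-05 without the 2 libraries that stand apart. The interaction of Fosb turned to -0.93 (DESeq2), -0.96 (library size), -2.22 (share detected) and -0.70 (block), and that of Npas4 to -0.29 (block). Between regions, Fosb in CTR mice turned to 0.99 (DESeq2), 0.14 (RLE), 0.00473 (upper quartile) and 0.0646 (without the 2 libraries), and in mCRS mice to 1.92 (DESeq2), 0.62 (library size), 1.93 (share detected) and 0.51 (block). Jun in mCRS mice turned to 0.0484 (DESeq2), 0.0483 (RLE), 0.0228 (upper quartile) and 0.0593 (share detected), and Nr4a1 to -0.0260 (share detected).

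With 1 library left out, values that changed sign at least once ranged, in the PFC, from -0.22 to 0.25 for Junb, -0.33 to 0.65 for Npas4 and -0.18 to 0.48 for Nr4a1, and in the NAc from -0.32 to 0.00296 for Jun, -0.0693 to 0.14 for Egr1 and -0.72 to 0.000665 for Egr3. Between regions they ranged from -0.13 to 0.75 for Fosb and -0.49 to 0.0260 for Nr4a1 in CTR mice, and from -0.56 to 3.14 for Fosb and -0.22 to 0.0804 for Jun in mCRS mice. The interactions ranged from -3.15 to 1.19 for Fosb and -0.10 to 0.90 for Npas4. Fosb, Npas4 and Fos had no count in 29, 20 and 15 of the 62 libraries.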

Other observations

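Within each library the log2 CPM of Egr3 minus that of Egr1 averaged -1.55 ± 1.16 in PFC CTR and -0.20 ± 1.402 in PFC mCRS (SD, n = 15 each), and -1.14 ± 1.24 in NAc CTR and -1.74 ± 1.82 in NAc mCRS (SD, n = 16 each). Egr3 exceeded Egr1 in 1 of 15 PFC CTR and 5 of 15 PFC mCRS libraries, and in 1 of 16 libraries of either NAc group. This difference was chosen after the values of both genes were seen, so no test is given. It compares the same ratio of counts between groups and not the levels of the genes with each other.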
